A study of Mus musculus with 10 samples.

Results

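Genes that were abundant in mouse liver tumors driven by c-MYC, and low both in normal liver and in c-MYC tumors that also carried FOXO1AAA, were taken as a group. A gene was a member when its mean FPKM (sequenced fragments scaled to transcript length and library size) over the 3 c-MYC libraries was at least 5, at least 8 times the mean of the 3 c-MYC/FOXO1AAA libraries and at least 4 times the mean of the 4 normal livers. Genes of several large families and a few others (symbols that begin with Slc, Abc, Cyp, Kcn, Cldn, Serpin, Tmed or Igf2bp, and Sfmbt2, Phlda2 and Bhlha15) were set aside. The criteria on levels were met by 116 genes, of which 17 were set aside, so that the group held 99 of 16697 gene entries. Of the 99 genes, 97 are protein-coding, Gm10804 is a long noncoding RNA and Gm14871 is a processed pseudogene. The measured levels chose the members, so their height in c-MYC tumors and their low level in the other groups are a description and carry no test.

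The groups were normal liver of wild-type mice (NL, n = 4), tumors of wild-type mice given c-MYC with the empty pT3-EF1α vector (c-MYC, n = 3) and tumors of wild-type mice given c-MYC with FOXO1AAA in the same vector (c-MYC/FOXO1AAA, n = 3). The plasmids were pushed into hepatocytes by hydrodynamic tail vein injection and inserted by the Sleeping Beauty transposase, and FOXO1AAA carried a MYC tag and was driven by the EF1α promoter. FOXO1 is a transcription factor that AKT phosphorylates and keeps out of the nucleus, and FOXO1AAA is a mutant that AKT cannot inactivate. The comparison asked what active FOXO1 changes in c-MYC tumors. The strain is given as C57BL/6 in one field of the labels and as FVB in another and in the study's methods, and the descriptions of the control tumors differ on whether MCL1 was injected as well. Ages were not given. Nothing in the labels ties the libraries of a group to separate mice, so p-values measure only the spread between these libraries.

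As background, hepatocytes are polarized epithelial cells. Their apical membrane forms the bile canaliculus and carries microvilli built on actin bundles, while cadherin junctions hold neighboring cells together. The transcription factor HNF4A keeps the hepatocyte program on, and alpha-fetoprotein, SALL4 and TRIM71 belong to the fetal liver or to stem cells and return in some liver tumors.

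For 76 of the 99 genes, RefSeq promoters of GRCm38.p6 gave 112 windows of 250 bases before to 50 bases after a transcription start. They were searched on both strands for a FOXO motif (TGTTTAC), an HNF4 motif (CAAAGTCC), the E-box of MYC (CACGTG) and a TATA box (TATAAA). The FOXO motif was in 3 windows, those of Dnajc6, Spats2l and Ttll10, which is 2.68% of the members' windows against 3.65% of all 32851 mouse windows and 2.95% of the 13040 windows of genes tested. The HNF4 motif was in 4 windows, those of Car7, Ggt1, Pth1r and Tnnc1, which is 3.57% against 1.42% of all windows and 1.5% of those of genes tested. The E-box was in 8 windows (7.14%, against 7.15% and 9.81%), those of Amn, Arhgef16, Ggt1, Pld6, Syt14, Tmem169 and Tceal5. In Tceal5 the same site was counted in 2 overlapping windows. The TATA box was in 10 windows (8.93%, against 13.6% and 7.9%). Its share in the members was below that of all windows and above that of genes tested. These counts are a description, and a match in a window does not show that a factor binds there. Ggt1, Pth1r, Car7 and Dnajc6 have several windows, and not all of these hold the motif marked below. Each stretch below lies before the start of a window with the motif, which is in capitals. Stretches are on the strand of the gene, and in Tnnc1 the motif is on the opposite strand. The first 4 are shown because they carry the HNF4 motif in members described below, and the last 2 because they carry the motif of the FOXO family to which the transgene belongs.
Ggt1, chr10:75573274-75573333, plus strand, HNF4 motif 195 bases before the start: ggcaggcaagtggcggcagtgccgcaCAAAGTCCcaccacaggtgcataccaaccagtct
Pth1r, chr9:110747149-110747208, minus strand, HNF4 motif 37 bases before the start: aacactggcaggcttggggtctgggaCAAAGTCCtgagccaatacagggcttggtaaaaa
Tnnc1, chr14:31208153-31208212, plus strand, HNF4 motif 133 bases before the start: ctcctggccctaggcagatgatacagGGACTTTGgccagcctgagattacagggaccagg
Car7, chr8:104541061-104541120, plus strand, HNF4 motif 222 bases before the start: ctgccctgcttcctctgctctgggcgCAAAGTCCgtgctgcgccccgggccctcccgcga
Dnajc6, chr4:101507916-101507975, plus strand, FOXO motif 34 bases before the start: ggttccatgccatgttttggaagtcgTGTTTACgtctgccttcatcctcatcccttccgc
Ttll10, chr4:156050841-156050900, minus strand, FOXO motif 57 bases before the start: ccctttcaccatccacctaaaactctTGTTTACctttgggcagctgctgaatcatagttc

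The libraries held 13.12 to 17.03 M (M, mega) reads in listed genes in NL, 14.19 to 15 M in c-MYC and 13.48 to 20.55 M in c-MYC/FOXO1AAA. Foxo1 itself, counted over native and transgene transcripts alike, stood at 95.6, 83.6 and 70.1 FPKM in the c-MYC/FOXO1AAA libraries, and between 5.17 and 7.87 FPKM in all others. The summed FPKM of 17 hepatocyte markers was 111288 to 124359 in NL, 7793 to 10386 in c-MYC and 1367 to 2633 in c-MYC/FOXO1AAA. The sum of 11 skeletal muscle markers was 384 to 516 in c-MYC/FOXO1AAA and at most 8.84 elsewhere, and that of 12 stellate cell and fibroblast markers was 491 to 511 against 17.8 to 56.6 in c-MYC and 101 to 128 in NL. In bulk tissue, fewer cells of a type and less RNA per cell cannot be told apart, and what the make-up of the tissue contributes to the members' levels was not tested.

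Member means ran from 5 to 2098 FPKM in c-MYC, with a median of 17.8. In NL they ran from 0.158 to 106 FPKM with a median of 1.25, and in c-MYC/FOXO1AAA from 0.0387 to 86.8 FPKM with a median of 0.974. The ratio of the c-MYC mean to the c-MYC/FOXO1AAA mean had a median of 16.0 and reached 133, and the ratio to the NL mean had a median of 15.8 and reached 60.7. Every c-MYC library lay above all 7 others for 98 of the 99 genes, a pattern seen in 14.2% of the 14017 genes tested. All 99 genes passed the filter on low values. By limma's test against a 1.5-fold change, 98 of the 99 were called higher in c-MYC than in NL, where 24.5% of all genes tested were, and 0 lower, where 23.6% were. Against c-MYC, 98 were called lower with FOXO1AAA, where 12.7% of all genes were, and 0 higher, where 15.9% were. The rule used both contrasts, so nothing is read from these counts. The exception throughout was Rec8, described with the chromatin genes.

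**Figure D1:**
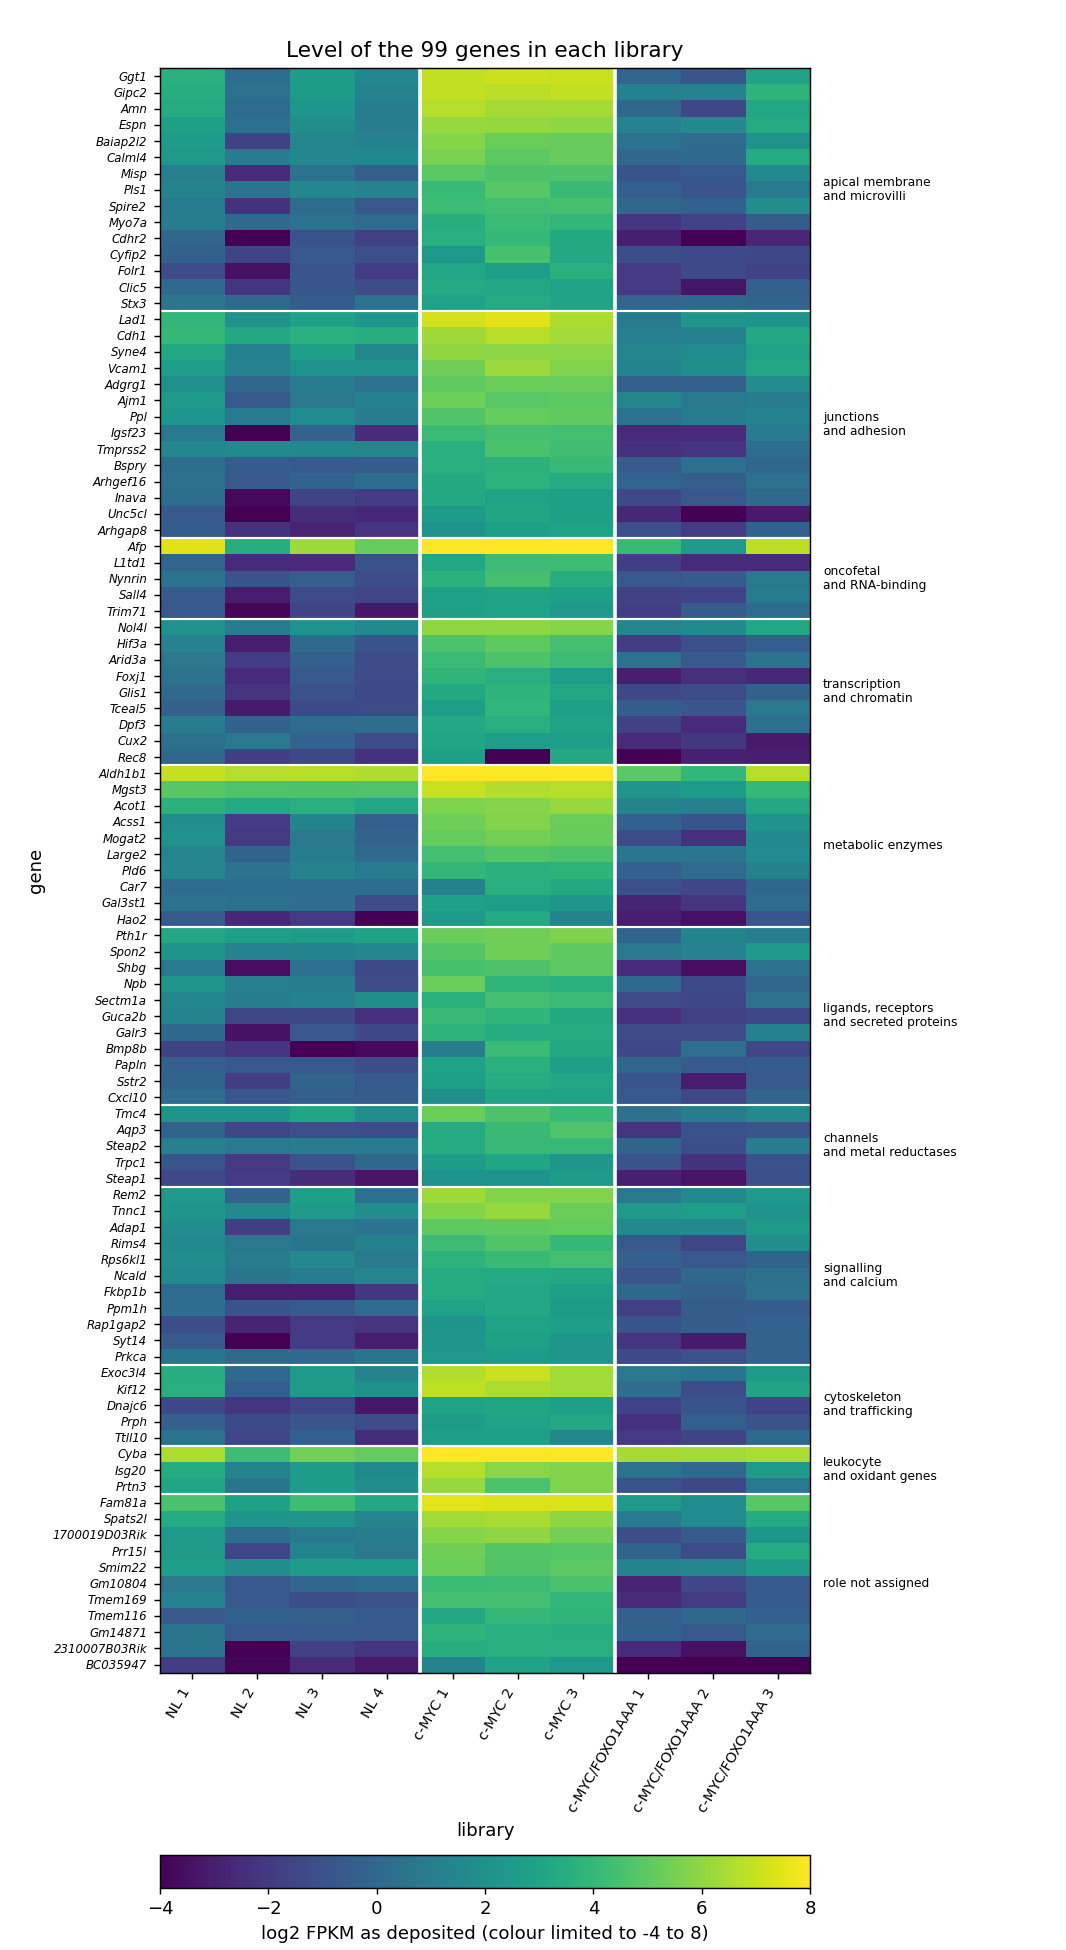
Level of each of the 99 genes (rows, grouped by role) in each of the 10 libraries (columns), as deposited log2 FPKM in color, limited to the range from -4 to 8. The 3 c-MYC columns are the brightest of each row, except for Rec8 in c-MYC 2, and NL 1 and c-MYC/FOXO1AAA 3 are for most genes the brightest columns of their groups.

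The members were sorted by known role after their values had been seen. The roles are broad, so their sizes depend on how genes were assigned. The largest role held 15 genes of the apical membrane and of microvilli, counting actin regulators such as Cyfip2 and Spire2. Their c-MYC means had a median of 21.3 FPKM, and the c-MYC to c-MYC/FOXO1AAA ratio had a median of 20.6. Ggt1 (chr10:75561604-75586200), the enzyme that cleaves extracellular glutathione at the apical surface, stood at 120, 136 and 130 FPKM in the c-MYC libraries. It was at 12.1, 1.25, 6.08 and 3.02 FPKM in NL 1 to 4, and at 0.947, 0.556 and 8.11 FPKM in c-MYC/FOXO1AAA 1 to 3. The low groups overlapped, and in each of them one library was well above the rest. Amn, which anchors the endocytic receptor cubilin, had 103, 83.8 and 82.6 FPKM in c-MYC and 1.02, 0.385 and 8.76 FPKM in c-MYC/FOXO1AAA, and Gipc2, a PDZ adaptor protein, had 121, 108 and 120 FPKM against 2.39, 2.52 and 13.9 FPKM.

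The members among the structural proteins of microvilli followed the same course, as the rule required, at lower levels. Espn, which bundles actin filaments, stood at 71.5, 68.3 and 61.9 FPKM in c-MYC and at 2.47, 3.12 and 10.4 FPKM in c-MYC/FOXO1AAA. Pls1, another actin bundler, had 17.4, 29.6 and 16.8 FPKM in c-MYC against 0.744, 0.556 and 1.81 FPKM. Cdhr2 (chr13:54701461-54736662), a protocadherin that links the tips of microvilli, was among the sharpest cases. Its c-MYC libraries held 11.7, 16.1 and 9.84 FPKM, its NL libraries 0.928, 0.0544, 0.5 and 0.298 FPKM, and its c-MYC/FOXO1AAA libraries 0.127, 0.0287 and 0.152 FPKM from 10, 0 and 10 reads, so that the c-MYC mean was 122 times the c-MYC/FOXO1AAA mean. Calml4, a light chain of the microvillar myosin 7B, had ratios of 9.30 to c-MYC/FOXO1AAA and 11.6 to NL, and Baiap2l2, which bends membranes over actin, had ratios of 19.8 and 15.5. The remaining genes of this role were Misp, Spire2, Myo7a, Cyfip2, Folr1, Clic5 and Stx3, with ratios to c-MYC/FOXO1AAA from 9 for Stx3 to 34.5 for Myo7a. Cyfip2, part of the actin-regulating WAVE complex, was uneven within c-MYC, at 5.24, 22.8 and 9.48 FPKM.

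The role of junctions and adhesion was drawn broadly and held 14 genes. Not all of them are known parts of junctions, Syne4, Tmprss2 and Unc5cl among them. Cdh1 (chr8:106603351-106670246), which encodes E-cadherin, stood at 77.8, 104 and 79.9 FPKM in c-MYC, at 15.7, 9.75, 12.6 and 11.1 FPKM in NL and at 2.30, 2.44 and 9.38 FPKM in c-MYC/FOXO1AAA. The 3 groups did not overlap, and the order was c-MYC, NL and then c-MYC/FOXO1AAA. Lad1, a filament protein of epithelial anchorage, was the most abundant gene of this role at 147, 175 and 91.8 FPKM in c-MYC, against 4.49 to 14.8 FPKM in NL and 1.98 to 4.75 FPKM in c-MYC/FOXO1AAA. Vcam1, an adhesion molecule for leukocytes, was at 41.8, 72.1 and 52.5 FPKM in c-MYC and at 2.71, 3.91 and 8.83 FPKM in c-MYC/FOXO1AAA. The desmosome-associated Ppl stood at 26.7, 36.4 and 33.3 FPKM against 1.38, 1.90 and 2.53 FPKM. Tmprss2, a membrane serine protease, was steady in NL at 2.72 to 3.26 FPKM, was at 12.1, 23.8 and 20.2 FPKM in c-MYC and was at 0.204, 0.217 and 1.28 FPKM in c-MYC/FOXO1AAA. Igsf23 had 18.2, 21.7 and 20.6 FPKM in c-MYC, and its log2 difference was at least 5.75 in size against either other group. Unc5cl reached only 6.18, 8.57 and 7.08 FPKM in c-MYC, yet its c-MYC/FOXO1AAA libraries held 8, 2 and 4 reads. The remaining 7 genes, Syne4, Adgrg1, Ajm1, Bspry, Arhgef16, Inava and Arhgap8, had ratios to c-MYC/FOXO1AAA from 10.7 to 21.3.

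Afp (chr5:90490737-90508907), the serum protein of fetal liver that serves as a marker of liver cancer, was the most abundant member. It stood at 1879, 2781 and 1635 FPKM in c-MYC. In NL it was at 169, 11.1, 76.9 and 36.6 FPKM, and in c-MYC/FOXO1AAA at 17.3, 5.56 and 112 FPKM. The 2 low groups overlapped over most of their range. The other oncofetal and RNA-binding members were low in absolute level. L1td1, an RNA-binding protein derived from a LINE-1 element, had 9.21, 18.6 and 19.1 FPKM in c-MYC and 2, 0 and 0 reads in c-MYC/FOXO1AAA. Sall4, a zinc finger factor of stem cells, had 7.18, 7.55 and 6.91 FPKM against 0.314, 0.336 and 1.95 FPKM, and Trim71, a repressor of mRNAs in stem cells, had 7.05, 7.86 and 5.22 FPKM against 0.295, 0.734 and 1.15 FPKM. Nynrin had a ratio to c-MYC/FOXO1AAA of 15.2.

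**Figure D2:**
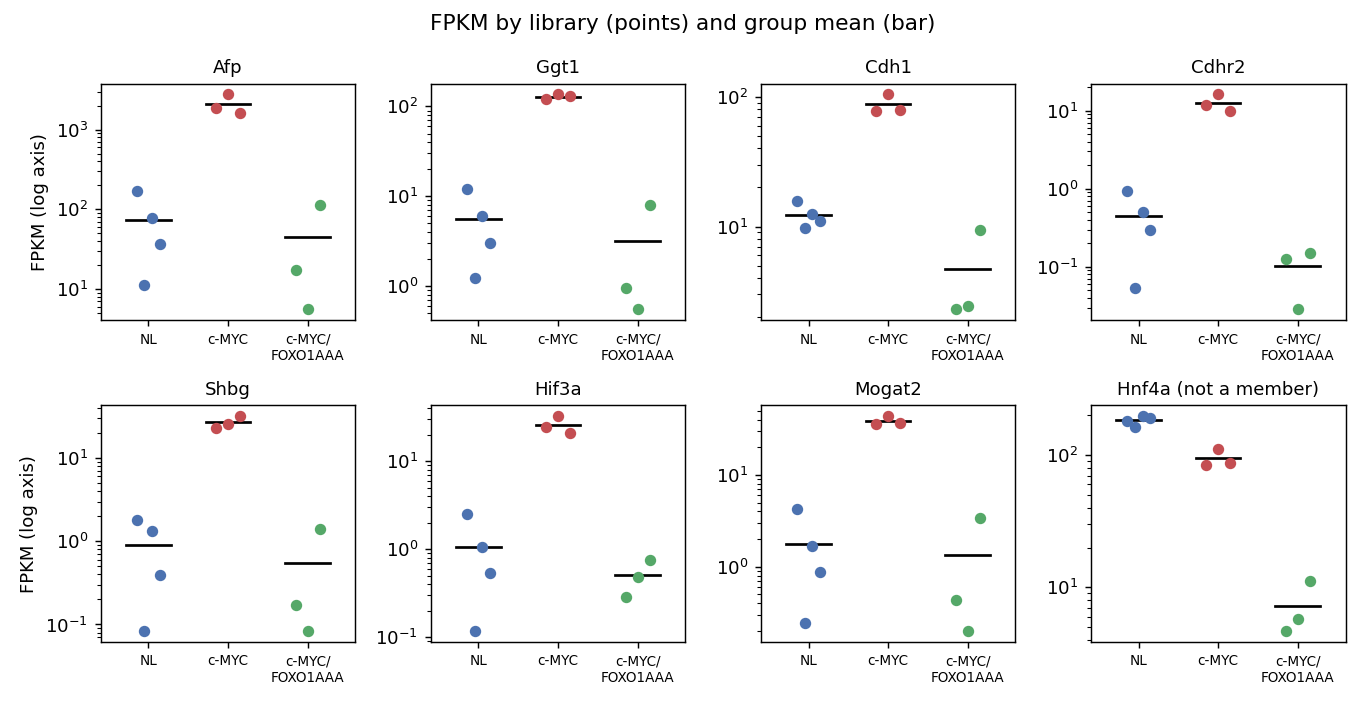
FPKM of 7 members, and of Hnf4a, which is not a member, in every library (points, log axes) with the mean of each group (bar). The members are high only in c-MYC, whereas Hnf4a is also high in NL and low only in c-MYC/FOXO1AAA.

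Of 10 metabolic enzymes, Aldh1b1, a mitochondrial aldehyde dehydrogenase, was the most abundant. It stood at 396, 478 and 436 FPKM in c-MYC, at 96.1 to 122 FPKM in NL and at 30.5, 15.2 and 105 FPKM in c-MYC/FOXO1AAA. Mgst3, a microsomal glutathione transferase, was at 125, 96.7 and 102 FPKM in c-MYC, within 25.3 to 29.2 FPKM in NL, and at 4.84, 6.27 and 15.9 FPKM in c-MYC/FOXO1AAA. These enzymes were already present in normal liver, and the median ratio of c-MYC to NL over the 10 was 6.31, the lowest of the roles. Mogat2, which makes diacylglycerol from monoacylglycerol, was nearer to absent in NL, with 35.7, 43.9 and 37.0 FPKM in c-MYC against 0.245 to 4.24 FPKM. Acss1, the mitochondrial enzyme that activates acetate, behaved alike, with 41.2, 54.5 and 38.3 FPKM against 0.267 to 3.69 FPKM. The other 6 were Acot1, Large2, Pld6, Car7, Gal3st1 and Hao2. Car7 had 2.40, 11.7 and 9.63 FPKM in c-MYC, and Hao2 5.88, 10.01 and 2.69 FPKM, so that both varied widely among the c-MYC tumors.

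Another 11 members are ligands, receptors or secreted proteins. Shbg, the carrier of sex steroids in blood, stood at 23.1, 25.4 and 31.8 FPKM in c-MYC, at 1.81, 0.0834, 1.31 and 0.398 FPKM in NL and at 0.169, 0.0834 and 1.41 FPKM in c-MYC/FOXO1AAA, where its reads were 3, 0 and 37. Pth1r, the receptor of parathyroid hormone, had 38.8, 41.6 and 50.6 FPKM in c-MYC, 6.15 to 9.51 FPKM in NL and 0.920, 2.62 and 2.07 FPKM in c-MYC/FOXO1AAA. Guca2b, the gut peptide uroguanylin, had 17.1, 14.7 and 9.91 FPKM in c-MYC and 0, 2 and 2 reads in c-MYC/FOXO1AAA. Bmp8b, a ligand of the bone morphogenetic protein family, had the highest ratio to NL of all members, 60.7, but was uneven in c-MYC at 2.13, 18.0 and 9.71 FPKM. Npb, a neuropeptide, was highest in c-MYC 1 at 37.9 FPKM, against 14.3 and 12.4 FPKM in the others. The chemokine Cxcl10, the somatostatin receptor Sstr2, the galanin receptor Galr3, Sectm1a, Spon2 and Papln completed the role, with ratios to c-MYC/FOXO1AAA from 10.1 to 23.5.

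Among 9 genes of transcription and chromatin, Hif3a, a hypoxia-inducible factor that can restrain its relatives, stood at 24.6, 32.6 and 21.2 FPKM in c-MYC, 0.118 to 2.54 FPKM in NL and 0.285, 0.484 and 0.759 FPKM in c-MYC/FOXO1AAA. Foxj1, the forkhead factor of motile cilia, had 14.7, 11.7 and 6.62 FPKM in c-MYC and 5, 12 and 6 reads in c-MYC/FOXO1AAA. Arid3a, a DNA-binding factor, had 18.2, 25.1 and 18.4 FPKM against 1.39, 0.654 and 1.47 FPKM. Cux2, a homeobox factor, had 8.64, 6.70 and 6.69 FPKM against 0.174, 0.239 and 0.113 FPKM. Rec8, a cohesin subunit of meiosis, rested on part of its group, since the c-MYC libraries held 268, 0 and 378 reads. It passed the rule on the mean, and it was the member whose c-MYC libraries overlapped the others and that was called in neither contrast. Nol4l, Glis1, Tceal5 and Dpf3 had ratios to c-MYC/FOXO1AAA from 9.39 to 20.1.

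The role named channels and metal reductases held 5 genes. Aqp3, a water and glycerol channel, had 10.3, 17.0 and 25.9 FPKM in c-MYC, 0.368 to 0.888 FPKM in NL and 0.228, 0.503 and 0.558 FPKM in c-MYC/FOXO1AAA. Steap1 and Steap2 encode related membrane proteins of the STEAP family and lie 41.7 kb apart on chromosome 5. Steap2 stood at 10.7, 16.9 and 16.4 FPKM in c-MYC and Steap1 at 4.44, 4.28 and 6.29 FPKM, and in c-MYC/FOXO1AAA they held 0.900, 0.468 and 2.09 FPKM and 0.129, 0.0963 and 0.469 FPKM. Tmc4 and Trpc1 had ratios to c-MYC/FOXO1AAA of 12 and 15.1.

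The 11 genes of signaling and calcium had the lowest median ratio to c-MYC/FOXO1AAA, 10.3. Rem2, a small GTPase that regulates calcium channels, was at 79.2, 54.6 and 53.0 FPKM in c-MYC and at 1.81, 3.36 and 5.70 FPKM in c-MYC/FOXO1AAA. Tnnc1, the troponin C of heart and slow muscle, was at 54.8, 70.0 and 40.1 FPKM in c-MYC and at 5.53, 6.47 and 4.35 FPKM in c-MYC/FOXO1AAA, the group in which the summed skeletal muscle markers were highest. Prkca, the kinase PKC alpha, had 5.33, 5.88 and 4.95 FPKM against 0.410, 0.488 and 0.857 FPKM. The other 8, Adap1, Rims4, Rps6kl1, Ncald, Fkbp1b, Ppm1h, Rap1gap2 and Syt14, had ratios to c-MYC/FOXO1AAA from 8.03 to 22.6.

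The cytoskeleton or trafficking accounted for 5 members. Exoc3l4 was at 97.3, 130 and 81.7 FPKM in c-MYC and at 1.76, 1.60 and 5.83 FPKM in c-MYC/FOXO1AAA, and the kinesin Kif12 at 114, 90.7 and 80.2 FPKM against 1.22, 0.421 and 8.05 FPKM. Dnajc6, the clathrin-uncoating protein auxilin, the neuronal filament gene Prph and Ttll10 lay between 2.86 and 9.10 FPKM in every c-MYC library. Another 3 members are known from leukocytes or from oxidant production. Cyba, the p22phox subunit of NADPH oxidase, stood at 911, 504 and 777 FPKM in c-MYC and, in contrast to most members, at a steady 85.2, 81.7 and 93.5 FPKM in c-MYC/FOXO1AAA, with 19.5 to 90.6 FPKM in NL. Isg20, an interferon-induced exonuclease, had 100.1, 58.5 and 53.4 FPKM in c-MYC. Prtn3, the granule protease proteinase 3, had 70.1, 24.3 and 52.8 FPKM in c-MYC, whereas the summed FPKM of 3 neutrophil and mast cell markers was 1.95 to 3.06 there, 1.56 to 5.28 in NL, 1.45 and 1.46 in c-MYC/FOXO1AAA 2 and 1, and 16.0 in c-MYC/FOXO1AAA 3.

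No role was assigned to 11 members. Fam81a was the most abundant of them at 179, 164 and 160 FPKM in c-MYC and 5.71, 3.47 and 29.9 FPKM in c-MYC/FOXO1AAA. BC035947 was the only member with no read in any c-MYC/FOXO1AAA library, and its c-MYC mean of 5.15 FPKM was at least 63.9-fold higher than 3 reads per library would give. At most 3 reads in every c-MYC/FOXO1AAA library were found for BC035947, Guca2b, L1td1 and Gm14871. Of all genes tested, 1.53% had at most 3 reads in each of these libraries and 0.385% had none. Gm14871 held only 47, 40 and 38 reads in c-MYC. The level of 2310007B03Rik was even across c-MYC, at 11.1, 12.1 and 11.6 FPKM. Spats2l, 1700019D03Rik, Prr15l, Smim22, Gm10804, Tmem169 and Tmem116 had ratios to c-MYC/FOXO1AAA from 8.43 to 51.9.

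Within both groups in which the rule made the members low, a single library was the highest for most of them. The members' median coefficient of variation was 58.6% in NL, 63.0% in c-MYC/FOXO1AAA and 20.6% in c-MYC, and many members rested on few reads in the first and second of these. NL 1 was the highest normal liver for 88 of the 99 genes (88.9%), where it was the highest for 45.3% of all genes tested. NL 2 was the lowest for 71 members (37.9% of all genes tested). The full order NL 1, NL 3, NL 4, NL 2 was found in 51 members, or 51.5%, and in 11.0% of all genes tested. The 842 other genes that met the level and normal liver criteria had the same order of medians, at 17.6%, 9.02%, 12.5% and 11.1% of the c-MYC mean in NL 1 to 4, so the order was not particular to the members. The fetal RNA H19, which is no member, had the same order, at 1403, 88.4, 669 and 329 FPKM in NL 1 to 4. The members were not alike in this, since 41 of them differed more than 5-fold among the normal livers, while 21 differed less than 2-fold. These ranges were not counted over all genes tested. The even ones included Cdh1, Tmprss2, Mgst3, Aldh1b1, Pth1r, Car7, Acot1, Prkca and Steap2.

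In c-MYC/FOXO1AAA the third library was the highest for 77 members (77.8%), where it was for 34.5% of all genes tested. It was at least 2 times the higher of the other libraries for 52 members, a pattern found in 3.27% of all genes tested. As a share of the c-MYC mean, the median member stood at 3.5% in c-MYC/FOXO1AAA 1, 3.44% in c-MYC/FOXO1AAA 2 and 9.30% in c-MYC/FOXO1AAA 3. In the normal livers it stood at 11.6%, 3.24%, 6.09% and 4.51%. Without c-MYC/FOXO1AAA 3 the median ratio of the c-MYC mean to the c-MYC/FOXO1AAA mean was 28.1 in place of 16.0, and without NL 1 the median ratio to NL was 21.4 in place of 15.8. Foxo1 was lowest in c-MYC/FOXO1AAA 3, and the summed hepatocyte markers were highest there, at 2633 FPKM against 1367 and 2366 FPKM in c-MYC/FOXO1AAA 1 and 2. The summed erythroid markers were also highest there, at 536 FPKM against 327 and 218 FPKM, as were those of neutrophils and mast cells, at 16.0 FPKM against 1.46 and 1.45 FPKM, and of cholangiocytes, at 54.5 FPKM against 42.9 and 47.2 FPKM, while those of skeletal muscle were lowest, at 384 FPKM against 426 and 516 FPKM. NL 1 had the highest erythroid sum of the normal livers, 2226 FPKM against 1123 to 1347 FPKM. Their part in the members' levels was not tested. The c-MYC tumors showed less of this. There c-MYC 2 was the highest library for 51 members (51.5%, against 37.5% of all genes tested). For c-MYC 1 it was 32 members (32.3%, against 34.4%) and for c-MYC 3 it was 16 (16.2%, against 28.1%).

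**Figure D3:**
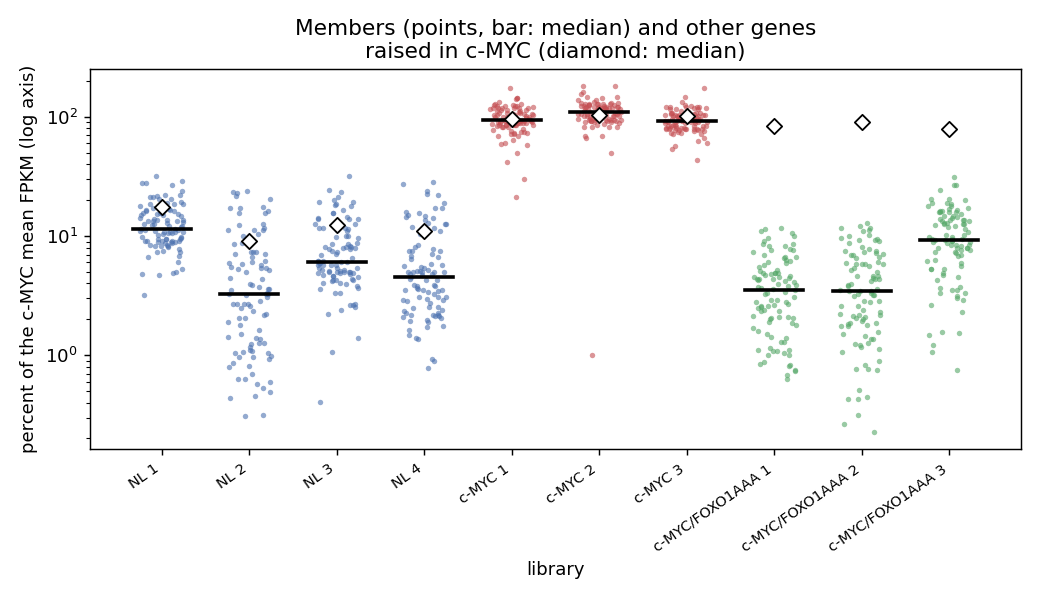
FPKM of each member as a percent of its c-MYC mean (points, log axis) in each library, with the median over the 99 members (bar) and, as diamonds, the median over 842 other genes that met the level and normal liver criteria. NL 1 and c-MYC/FOXO1AAA 3 lie above the rest of their groups, at medians of 11.6% and 9.30%, and the medians over the 842 other genes lie between 79.3% and 90.2% in the 3 c-MYC/FOXO1AAA libraries.

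The comparison of c-MYC/FOXO1AAA with NL places the members' level with FOXO1AAA beside that of normal liver. The rule capped both means against the c-MYC mean, and more tightly in c-MYC/FOXO1AAA (8 times) than in NL (4 times), so it tilts the members towards a lower level with FOXO1AAA. The values of this comparison are therefore a description with no test, and nothing about the members is read from the counts beside those of all genes. The c-MYC/FOXO1AAA mean was below the NL mean for 68 members, as it was for 45.3% of all genes tested. By limma's threshold, 14 of the 99 members were called lower with FOXO1AAA than in NL (14.1%, against 26.6% of all genes tested) and 2 higher (2.02%, against 31.2%). Many members stood near or below 1 FPKM in both groups and passed the filter on low values through c-MYC. The median log2 difference was -0.45 over the members and 0.21 over all genes tested. For the other 83 members no difference was called, which does not show that the levels were equal, and the spread within both groups was wide. The counts moved with single libraries, since with c-MYC/FOXO1AAA 3 left out 27 members were called lower and 0 higher, and with NL 1 left out 8 were lower and 6 higher. The share of all genes called in these settings was not counted, so nothing about the members is read from this.

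Since the rule tilted the members towards this direction, the differences and calls that follow are a description. The lower members were led by Tmprss2, with a log2 difference of -2.96 (SE 0.56), and it was called under each of 22 alternative settings. Cux2 had a log2 difference of -2.51 (SE 0.46), Sectm1a of -2.17 (SE 0.44) and Pth1r of -2.11 (SE 0.31). In these 4 every c-MYC/FOXO1AAA library lay below every normal liver. Prtn3 had a log2 difference of -2.56 (SE 0.67), although c-MYC/FOXO1AAA 3, at 1.81 FPKM, lay above NL 2, at 1.56 FPKM. BC035947, Myo7a, Mgst3, Rps6kl1, Gm10804, Cdh1, Acot1, Ncald and Prkca had log2 differences from -1.86 to -1.23, and Mgst3, Prkca and Ncald lay close to the rule's limit on NL, with ratios of the c-MYC mean to the NL mean of 4.07, 4.08 and 4.16. Several calls were lost under other settings, since Acot1 kept its call in 7 of 22, Gm10804 in 8 of 22 and Prkca in 9 of 21. The 2 members called higher were Fkbp1b, a calcium channel-binding immunophilin, with a log2 difference of 2.06 (SE 0.68), and Rap1gap2, a GTPase activator, with 1.5 (SE 0.38). They kept their calls in 5 of 21 and 11 of 21 alternative settings, and neither was called with the replicate number as a block. Both were low in all libraries of these groups, with no c-MYC/FOXO1AAA library above 1.43 FPKM, and Fkbp1b in NL 1, at 1.14 FPKM, overlapped the c-MYC/FOXO1AAA libraries. Fkbp1b and Rap1gap2, and Cux2, BC035947 and Gm10804 among the lower members, passed the filter on low values only through c-MYC. Every c-MYC/FOXO1AAA library lay below every normal liver for 14 members (36% of all genes tested) and above for 2, Bmp8b and Rap1gap2 (44.1% of all genes tested).

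**Figure D4:**
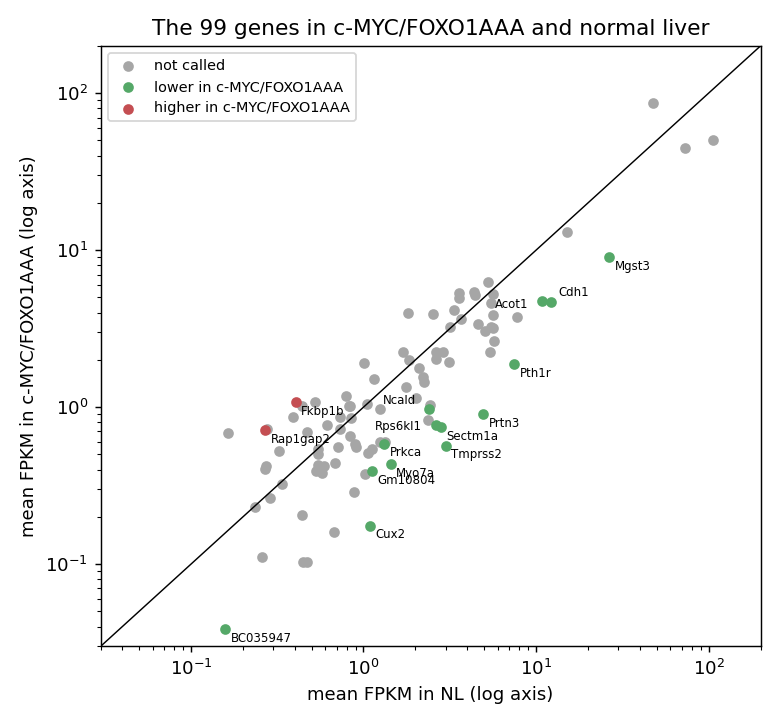
Mean FPKM of each of the 99 members in NL (x axis) and in c-MYC/FOXO1AAA (y axis), on log axes, with the line of equal means. The 14 members called lower lie below the line and are named with the 2 called higher, and most of the others scatter around the line.

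Genes with related roles that are no members were examined from written lists, in the contrast of c-MYC/FOXO1AAA with c-MYC, where 15.9% of all genes tested were called higher and 12.7% lower. These contrasts share their libraries with the rule. Of 21 listed genes of the brush border and microvilli in the table, 6 were members (Amn, Espn, Baiap2l2, Calml4, Pls1 and Cdhr2). Of the 11 others that were tested, 7 were lower and 1 higher, with a median log2 difference of -2.85 against 0.03 over all genes tested. Pdzk1, a scaffold of apical transporters, was at 20.7 FPKM ± 4.69 (SD, n = 3) in c-MYC. With FOXO1AAA it was at 0.819 FPKM ± 0.348 (SD, n = 3), a log2 difference of -4.73 (limma adjusted p 9.4e-07). Its NL level of 23.8 FPKM ± 2.98 (SD, n = 4) was near that of c-MYC, which kept it out of the group. Anks4b, a partner of microvillar protocadherins, fell with a log2 difference of -4.22 (limma adjusted p 5.2e-05) and Slc9a3r1, the scaffold EBP50, with -3.42 (limma adjusted p 3.6e-06), and they too were not called between c-MYC and NL. Vil1, the actin bundler villin, had the pattern of the members below their level threshold, at 0.170, 1.80 and 0.170 FPKM in NL, c-MYC and c-MYC/FOXO1AAA. Eps8l2, Baiap2l1 and Mal2 were lower as well, with log2 differences from -2.94 to -2.58, and Slc9a3r2 was higher with 1.2. Ezr, Eps8 and Cdhr5 were not called. Ezr was at 2.92, 17.75 and 20.3 FPKM in NL, c-MYC and c-MYC/FOXO1AAA, and Eps8 at 7.66, 20.1 and 31.3 FPKM. Cdhr5, the binding partner of Cdhr2 at the tips of microvilli, went the other way from Cdhr2 between NL and c-MYC, from 72 to 0.995 FPKM (log2 difference -6.23, limma adjusted p 9e-09).

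None of 25 liver transcription factors was a member. In c-MYC/FOXO1AAA against c-MYC, 13 of them were lower and 3 higher, with a median log2 difference of -2.08, and in c-MYC against NL 18 were lower and 0 higher. Hnf4a was at 83.7, 112 and 87.3 FPKM in c-MYC and at 4.67, 5.72 and 11.1 FPKM in c-MYC/FOXO1AAA, a log2 difference of -3.81 (SE 0.27, limma adjusted p 3.1e-06), with 164 to 197 FPKM in NL. It was highest in c-MYC/FOXO1AAA 3 within its group, as 77 of the members were. Onecut1, Nr5a2, Foxa3 and Ppara were also lower, with log2 differences from -4.24 to -2.62, while Nfib, with 2.51, and Zhx2, with 1.66, were higher. By the rule, the members were low in both NL and c-MYC/FOXO1AAA. Whether Hnf4a has a part in the members' levels was not tested.

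**Figure D5:**
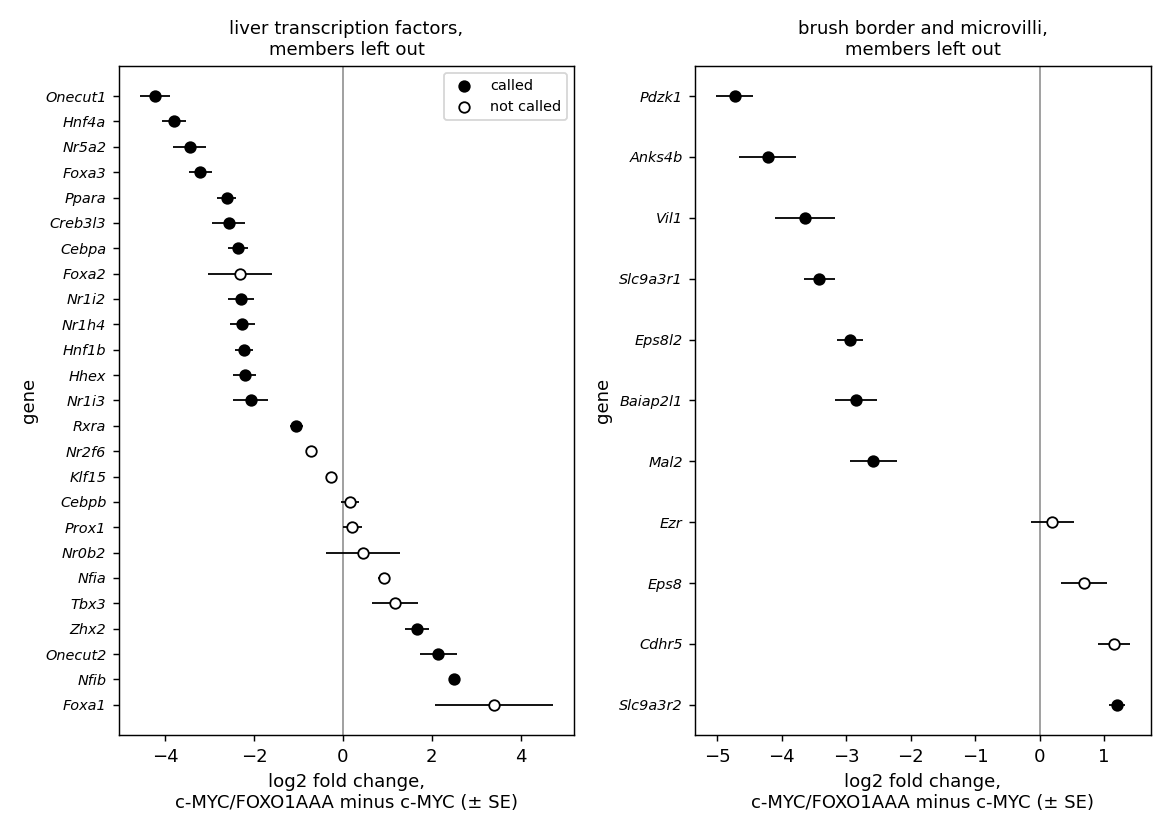
Log2 fold change of c-MYC/FOXO1AAA minus c-MYC with its standard error (x axis) for the tested genes of the liver transcription factor list (left) and of the brush border list without members (right). Filled points were called by limma, and 13 of 25 and 7 of 11 genes were called lower.

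The other lists were counted in the same contrast. Of 18 tested oncofetal and progenitor genes that are no members, with FOXO1AAA 6 were higher and 5 lower, and of 19 imprinted and placental genes 5 were higher and 3 lower. Of 14 genes of MIST1 and exocrine secretion 3 were higher and 6 lower, of 8 gut epithelium genes 2 and 2, of 2 islet and neuroendocrine genes 0 and 0, and of 3 cancer-testis genes 2 and 0. Among the lower MIST1 and exocrine genes, Bhlha15 and Tmed6 met the criteria on levels and were set aside only by name. The rule had therefore fixed their direction. The oncofetal and imprinted lists also hold symbols that were set aside by name. Of 17 hepatocyte markers 2 were higher and 12 lower, of 8 cholangiocyte markers 3 and 2, of 10 endothelial markers 1 and 0, of 12 macrophage markers 1 and 2, of 5 lymphocyte markers 1 and 2, and of 2 neutrophil and mast cell markers 0 and 0. Of 12 stellate cell and fibroblast markers 8 were higher and 0 lower, of 10 skeletal muscle markers 9 and 0, and of 6 erythroid markers 1 and 1.

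The members lay on 18 chromosomes, with the most, 12, on chromosome 4. In 14 pairs the members were no more than 500 kb apart. Trpc1 and Pls1 on chromosome 9 were 2.3 kb apart, and Misp, Prtn3 and Arid3a followed each other on chromosome 10 at gaps of 44.0 and 43.9 kb. Amn and Exoc3l4 on chromosome 12 were 140.6 kb apart, and Smim22 and Ppl on chromosome 16 were 78.0 kb apart. The others were Lad1 with Inava, Npb with Sectm1a, Dpf3 with Papln, Papln with Acot1, Rec8 with Nynrin, Galr3 with Baiap2l2, Gm14871 with Unc5cl and Tmem116 with Cux2. For 25 members, exon bases are shared with another annotated gene, among them Pth1r with Myl3, Prtn3 with Plppr3, Prkca with Apoh, BC035947 with Mogat1 and Galr3 with Gcat. The strand setting of the counting was not given in the sources used here, so reads of such overlaps cannot be assigned to one gene, and reads of Gm14871 and Acot1 may be split with near-identical copies.

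The thresholds cut through a continuous range. Nearest inside the level threshold were Steap1 at 5.004 FPKM and BC035947 at 5.15 FPKM, and nearest outside were Tns4 at 4.85 FPKM and Hsd3b1 at 4.76 FPKM. At the threshold on the ratio to c-MYC/FOXO1AAA, Fkbp1b (8.03) and Sall4 (8.32) were just inside, and Fkbp11 (7.88) and Nrtn (7.86) just outside. At that on the ratio to NL, Mgst3 (4.07) and Prkca (4.08) were just inside, and Cgn (3.83) and Camsap3 (3.77) just outside.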

How the data were processed

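RNA sequencing gave a single table of 17069 entries for 10 libraries, and 0 columns belonged to other samples. The deposited values are log2 FPKM made by the authors, who counted reads by gene and used edgeR. The submitters' processing notes name FastQC 0.11.7 and GRCm38, and the aligner and the counting tool are not given in the sources used here. The deposited values hold a prior count scaled to each library, which was taken here to be 2 reads. FPKM here are 2 to the power of the deposited value, with the prior count left in, which understates the change of low genes. The values move in steps of single reads, and from these steps whole reads were recovered for 100.0% of 16697 gene entries (tolerance 0.02 reads). The solution was unique for 12382 of them and for 96 of the 99 members, the exceptions being Cyba, Aldh1b1 and Afp, for which no reads are printed. The 372 entries with no symbol were left out. Where a group had no read, a fold was given against 3 reads, which covers counting error only. Chi-square per degree of freedom between replicates was 8.7 to 31.8, so no library was counted as a repeat of another.

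Genes with at least 1 FPKM in at least 3 libraries (14017) were fitted in limma 3.58.1 (R 4.3.3, statmod 1.5.0) with a mean per group over all 10 libraries. A gene was called when limma's treat, 2-sided against a 1.5-fold change and with trend and robust estimation, gave an adjusted p (Benjamini-Hochberg over all genes) under 0.05. The procedure was tested on simulated data. The members, gene lists, tests and motifs were chosen with earlier results of these data known. Genes were named by level in c-MYC, by size of change, by place in a list, by a call against NL, by neighborhood and by closeness to a threshold, and others for a known role after their values were seen. Positions are those of GENCODE M21 (GRCm38), in which all 99 members were matched by symbol, and promoters are those of RefSeq. A listed gene and a motif are not reported here. The alternatives were other pseudocounts, filters, scalings, thresholds and fits, the replicate number as a block, and each library left out.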

Additional observations from a re-analysis of the deposited data

Results flagged for a closer look

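In 7 of the 99 genes, the highest normal liver stood apart from the other 3 by more than Dixon's 95% critical value for 4 samples. In each of the 7 that library was NL 1. The values in NL 1 were 1.54 FPKM for 2310007B03Rik (next highest 0.304), 0.722 for Arhgap8 (0.221), 1.25 for Bspry (0.732), 1.14 for Fkbp1b (0.235), 1.54 for the pseudogene Gm14871 (0.610), 2.59 for Guca2b (0.371) and 2.51 for Tmem169 (0.626). Some of these values rested on few reads. Gm14871 had 2, 0, 0 and 0 reads in NL 1 to 4, so that 0.610 FPKM is the prior count alone. Fkbp1b had 11, 0, 0 and 1 reads and Guca2b 16, 1, 1 and 0 reads. Chance flags about 1 in 20 groups of normally distributed values, a rate that need not hold for values tied at a floor. Here it was 7.07% of the members against 6.28% of all genes tested, so single values that stand apart were about as common as elsewhere, whereas NL 1 was the highest normal liver for 88.9% of the members.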

How the results depend on the processing

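The number of members was 99 and lay between 89 and 115 with 1 library left out, and 78 genes were members whichever library that was. It was 126 with each library rescaled to the same FPKM total, of which 91 were shared, and 69 at a c-MYC mean of at least 10 FPKM. The same-total scaling raised the median log2 difference of all genes from 0.08 to 1.01 in c-MYC against NL, from 0.03 to 0.20 in c-MYC/FOXO1AAA against c-MYC and from 0.21 to 1.31 in c-MYC/FOXO1AAA against NL. In c-MYC against NL it gave 7061 genes higher and 1895 lower in place of 3435 and 3305. With no fold-change threshold 5487 were higher there, and with a threshold of 2, 2192. In c-MYC/FOXO1AAA against c-MYC, 2229 genes were higher and 1787 lower, 989 were higher at a mean FPKM of at least 5, 3984 higher and 3704 lower without a fold-change threshold, and 1102 lower at a threshold of 2. The 2 members higher with FOXO1AAA than in NL became 0 with a pseudocount of 0.1 or 1, a threshold of 2 or only the groups compared. At a mean FPKM of at least 5 they also became 0, because that filter left both out of the test. They became 1 with an equal median or with trend and robust estimation off, 5 with no threshold, 19 with the same FPKM total and 0 to 6 with 1 library left out. The 14 lower members became 5 with a pseudocount of 1, 9 at a mean FPKM of at least 5, 1 with the same FPKM total, 7 with a threshold of 2 and 7 to 27 with 1 library left out. The filter on mean FPKM had left Cux2, Ncald, Prkca and BC035947 out of the test. With NL 1 and c-MYC/FOXO1AAA 3 both left out, a setting chosen after seeing the data, 4 members were higher and 25 lower, and all 99 genes remained members of 119. Listed genes outside the members that were higher with FOXO1AAA than without it numbered 22, and 9 at a mean FPKM of at least 5. That filter left some listed genes untested, Vil1 among them. Apart from genes left out by this filter, the cause of these shifts was not tested. In c-MYC/FOXO1AAA against NL, the share of all genes called was not counted under the alternatives. Of the 16 members called against NL, 15 lost the call under at least 1 alternative and Tmprss2 under none. The listed genes followed singly, Hnf4a among them, kept theirs throughout, and no single gene turned its direction. The replicate numbers are shared by the groups but did not pair the libraries, since r of the deviations of same-numbered libraries was -0.04 to 0.03 over 9 pairs. With the replicate number as a block, 0 members were higher with FOXO1AAA than in NL, and 5 of 29 single genes lost their call.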
